A study of Mus musculus with 2 samples.

Results

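The 10 cAMP-responsive genes described here were read in mouse embryonic fibroblasts (MEFs) treated with isobutylmethylxanthine (IBMX), and none of the 10 differed by 1.5-fold between genotypes. The genes were *Nr4a1*, *Nr4a2*, *Nr4a3*, *Creb1*, *Crem*, *Pde4b*, *Pde4d*, *Fos*, *Rgs2* and *Sik1*. They were taken by name, out of 18193 genes that had a probe set naming 1 gene alone. Together they had 35 of 34945 such probe sets. *Nr4a2* read highest in BCL11B-/- relative to BCL11B+/+ MEFs, by 0.54 on the log2 scale, and *Fos* read lowest, by −0.45.

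The cells were primary fibroblasts of C57BL/6 embryos at embryonic day 12.5, used at passage 2, either BCL11B+/+ (wild type) or BCL11B-/-. Both cultures received the same adipogenic cocktail for 12 h, which held 0.5 mM IBMX, 10 μM pioglitazone, 10 μg/ml insulin and 1 μM dexamethasone. Ascorbic acid is listed in the study's methods alone. RNA of each genotype was hybridized to 1 Affymetrix mouse array, so there were no replicates, no p-value is given, and differences are described by size. How many embryos gave each culture and which exons were deleted are not given in the sources used here. No array of cells without IBMX was analysed here, so the response to IBMX itself was not measured. The arrays compare the genotypes under IBMX.

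IBMX is a methylxanthine that blocks most cyclic nucleotide phosphodiesterases and thereby raises cAMP in the cell. Cyclic AMP frees the catalytic subunits of protein kinase A (PKA), which phosphorylate the transcription factor CREB at cAMP response elements (CREs). The genes that follow are induced within minutes to hours, and several of their products, such as phosphodiesterases and the ICER form of CREM, shut the signal down again. In preadipocytes this burst, with glucocorticoid and insulin, switches on C/EBPβ.

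Values are log2 expression after the robust multi-array average. Where several probe sets named a gene, the brightest on average stood for it. A gene was counted if that average was at least 5 log2 units, as it was for 12331 genes, all 10 cAMP-responsive ones among them. *Bcl11b* itself read lower in BCL11B-/- MEFs on all 4 of its probe sets, by 2.26- to 2.97-fold. The arrays had medians of 5.28 and 5.28 (BCL11B+/+ and BCL11B-/-). The fibroblast markers *Col1a1*, *Col1a2*, *Col3a1* and *Vim* read between 11.75 and 14.06 on both arrays. Of the whole list of 10 fibroblast markers, *Dcn* (−0.88) and *Thy1* (−0.65) passed 1.5-fold downward, *S100a4* (0.65) passed it upward and 7 did not pass it. Within 5543 genes that had several probe sets, the pooled SD of the differences was 0.145 log2 units, which serves here as a yardstick of technical spread only. *Xist*, which is transcribed from the inactive X of females, read 10.80 in wild-type and 4.80 in BCL11B-/- MEFs. The Y-linked *Eif2s3y* read 7.89 and 8.97, *Kdm5d* 6.84 and 7.81, and *Uty* 6.80 and 7.61. The wild-type array thus held markers of both sexes and the BCL11B-/- array mainly those of males, and genotype and sex makeup cannot be told apart.

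Among all counted genes, 1.61% were at least 1.5-fold higher in BCL11B-/- MEFs and 1.75% were at least 1.5-fold lower. Of the 10 cAMP-responsive genes 0 were higher and 0 were lower by this rule. At these background shares, a list of this size would hold few such genes or none. Relative to the technical spread of 0.145 log2 units, 4 genes read lower by more than it (*Fos*, *Sik1*, *Creb1* and *Rgs2*), 1 read higher by more than it (*Nr4a2*) and 5 lay within it. Among all counted genes 38.0% lay outside this spread, and 18.5% read lower by more than it. The median difference of the 10 genes was −0.14, against 0 for all counted genes. Of their 35 probe sets, 25 had a mean of at least 5 and 10 were dimmer. The 25 ranged from −0.45 to 0.54, with 9 above 0 and 16 below, and 0 were 1.5-fold apart in either direction, against 3.05% of all such probe sets. The 10 dim ones ranged from −0.23 to 0.36 at levels of 2.28 to 4.68, where signal is mostly background.

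**Figure D1:**
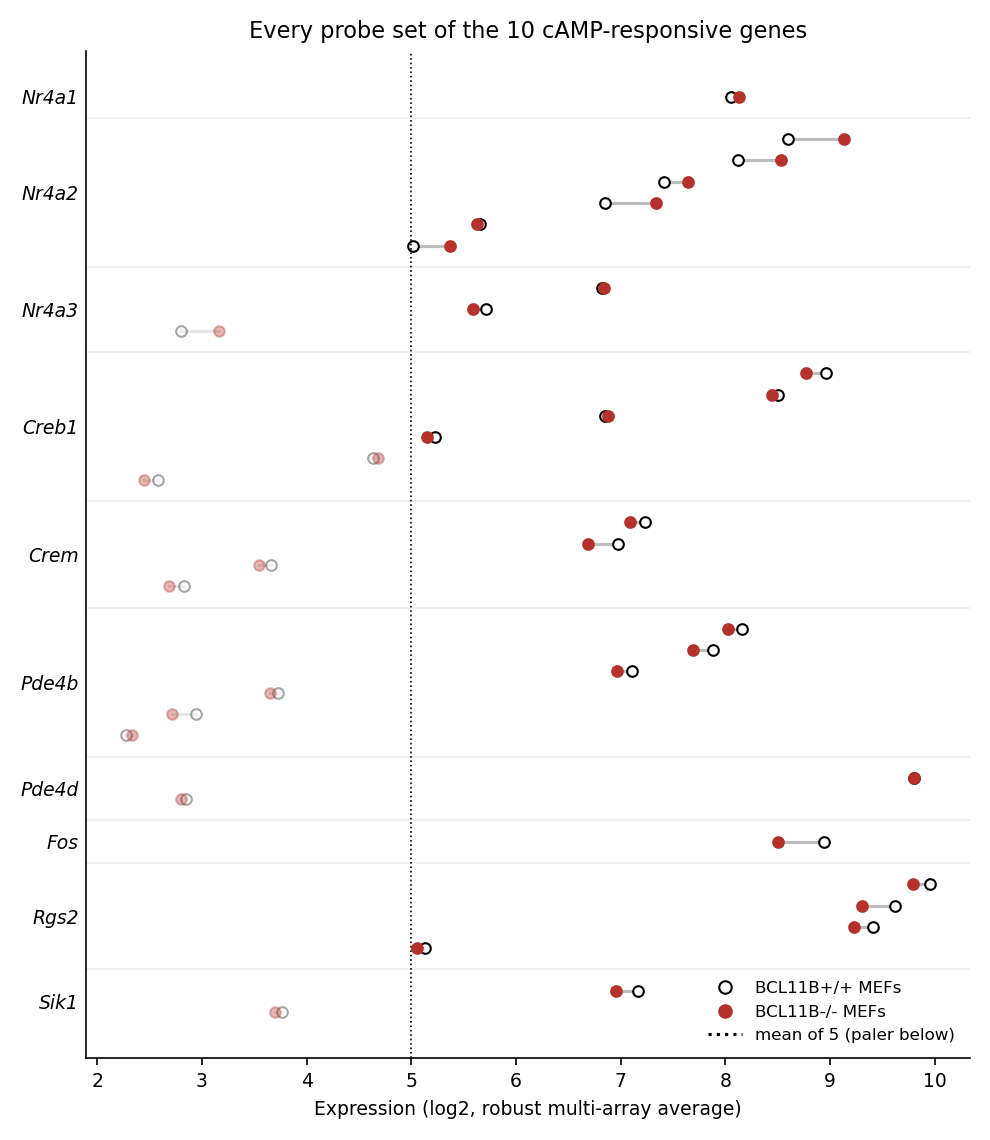
All 35 probe sets of the 10 genes (vertical axis) with their log2 expression (horizontal axis) in BCL11B+/+ (open circles) and BCL11B-/- (filled circles) cultures, without error bars since each had 1 array. Probe sets left of the dotted line (mean under 5) are paler, and the filled circle lies to the right on 5 of the 6 probe sets of *Nr4a2* and to the left on all 4 of *Rgs2*.

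The NR4A group holds 3 orphan nuclear receptors, which bind DNA without a known hormone and are controlled mainly by how fast their genes are transcribed. All 3 genes are textbook immediate early genes of cAMP. The 3 genes differed unevenly between the genotypes. *Nr4a2*, which encodes NURR1, read 8.59 in wild-type and 9.14 in BCL11B-/- MEFs on its brightest probe set, which is 1.45-fold higher and just short of 1.5-fold. Its next probe sets read 8.12 and 8.53, then 7.41 and 7.64, then 6.85 and 7.34 in the same order of genotypes. The same direction was thus seen on each of its 4 brightest probe sets. The 2 dimmest disagreed, with 5.65 and 5.63 on one and 5.01 and 5.37 on the other. Over all 6 the mean difference was 0.33, and the differences had an SD of 0.21, so how far *Nr4a2* differed depended on the probe set. Of all counted genes 2.05% read at least as far up.

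*Nr4a1*, which encodes NUR77, read 8.06 in wild-type and 8.13 in BCL11B-/- MEFs on its only probe set, a difference of 0.07. *Nr4a3*, which encodes NOR1, read 6.82 and 6.84 on its brightest probe set. Both differences lay within the technical spread. The second probe set of *Nr4a3* read 5.71 and 5.59, and its last gave 2.80 and 3.16, below the floor of 5. The probe sets of *Nr4a3* therefore gave no common direction. Whether *Nr4a2* differed from *Nr4a1* and *Nr4a3* between genotypes could not be tested with 1 array each.

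The promoters of the 3 receptor genes are shown for their CREs. The genes were taken as known cAMP-responsive genes, so counts of CRE letters near their starts are not independent of that choice. The CRE is written TGACGTCA, and its half-site is TGACG on one strand and CGTCA on the other. Both spellings were searched in windows of 250 bases before to 50 after each RefSeq transcription start (GRCm38.p6). The windows lie at chr15:101266596-101266895 (plus strand, *Nr4a1*), chr2:57123954-57124253 (minus strand, *Nr4a2*) and chr4:48045055-48045354 (plus strand, *Nr4a3*), and are printed 5′ to 3′ in the direction of transcription with half-sites in capitals.
Nr4a1: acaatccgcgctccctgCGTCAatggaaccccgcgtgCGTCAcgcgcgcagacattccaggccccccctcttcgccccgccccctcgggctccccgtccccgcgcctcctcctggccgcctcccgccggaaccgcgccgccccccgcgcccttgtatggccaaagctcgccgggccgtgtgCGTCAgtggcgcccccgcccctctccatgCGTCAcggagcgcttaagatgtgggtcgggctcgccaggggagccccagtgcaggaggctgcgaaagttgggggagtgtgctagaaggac
Nr4a2: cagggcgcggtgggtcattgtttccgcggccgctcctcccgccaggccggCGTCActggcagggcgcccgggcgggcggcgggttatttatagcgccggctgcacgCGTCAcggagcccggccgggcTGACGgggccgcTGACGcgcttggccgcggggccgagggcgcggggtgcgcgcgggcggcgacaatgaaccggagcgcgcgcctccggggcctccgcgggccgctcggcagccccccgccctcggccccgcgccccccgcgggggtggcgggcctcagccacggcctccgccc
Nr4a3: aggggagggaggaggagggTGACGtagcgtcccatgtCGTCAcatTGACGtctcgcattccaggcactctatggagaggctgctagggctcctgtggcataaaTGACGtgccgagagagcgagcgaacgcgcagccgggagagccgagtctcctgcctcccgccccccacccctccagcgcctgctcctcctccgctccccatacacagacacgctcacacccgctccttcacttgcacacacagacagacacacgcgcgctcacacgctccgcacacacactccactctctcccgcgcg

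Each of these 3 windows held 4 half-sites, and 0.231% of all 32851 promoter windows held at least as many. In *Nr4a1* the half-sites began 233, 213, 69 and 40 bases before the start and all read CGTCA. In *Nr4a2* they began 200, 144, 123 and 111 bases before it, and in *Nr4a3* 231, 213, 205 and 147. The differences of the 3 genes between genotypes ranged from 0.02 to 0.54, and any link of these to the half-sites was not tested. Windows were found for 8 of the 10 genes by Entrez identifier, 11 windows in all, with *Crem* and *Sik1* named only. At least 1 half-site was in 6 of the 11, against 20.8% of all windows. The full TGACGTCA was in 0 of the 11, and in 1.79% of all windows. A match shows only that the letters are present.

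**Figure D2:**
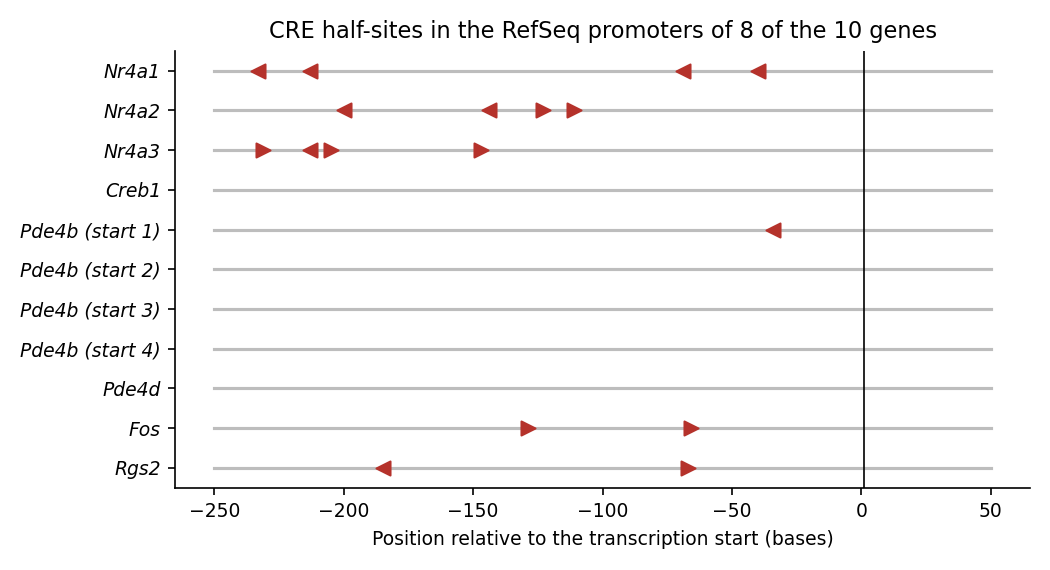
Positions of CRE half-sites (triangles, pointing right for TGACG and left for CGTCA) along the RefSeq promoter windows of 8 genes (vertical axis), in bases from the transcription start (horizontal axis, vertical line at the start). *Nr4a1*, *Nr4a2* and *Nr4a3* have 4 half-sites each, *Fos* and *Rgs2* have 2, and 1 of the 4 starts of *Pde4b* has 1.

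Among the CREB-family factors, *Creb1* encodes the activator that PKA phosphorylates, and *Crem* encodes a relative whose short ICER form represses CRE-driven genes. *Creb1* read 8.96 in wild-type and 8.77 in BCL11B-/- MEFs on its brightest probe set, which is 1.14-fold lower. Its next probe sets gave differences of −0.06, 0.02 and −0.08. Only the brightest of its 4 counted probe sets thus lay outside the technical spread. The other 2 of its 6 were dimmer than 5 and differed by 0.05 and −0.13. *Crem* read 7.23 and 7.09 on one probe set and 6.98 and 6.69 on the other counted one. Both were lower in BCL11B-/- MEFs, with log2 differences of −0.14 and −0.29, and the 2 dim probe sets differed by −0.15 and −0.11. Reads of the ICER form cannot be separated from the rest of *Crem* here, since the annotation names the gene and not the isoform.

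*Pde4b* and *Pde4d* encode cAMP-specific phosphodiesterases, which are among the enzymes that IBMX inhibits and whose synthesis is itself raised by cAMP as negative feedback. *Pde4b* read 8.16 in wild-type and 8.03 in BCL11B-/- MEFs on its brightest probe set, a difference of −0.13. Its other counted probe sets read 7.88 and 7.69, and 7.11 and 6.97. All 3 were lower in BCL11B-/- MEFs and lay close together, from −0.19 to −0.13, although only the second lay outside the technical spread. *Pde4d* read 9.80 and 9.81, which is the smallest difference of the 10 genes. Of all counted genes 96.4% differed by at least as much. One window of *Pde4b* (chr4:102421305-102421604, plus strand) held a CGTCA 34 bases before its start, and the windows of its other 3 starts, and those of *Pde4d* and *Creb1*, held none.

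*Fos* encodes an AP-1 subunit and is the classic immediate early gene, switched on by cAMP, calcium and serum within minutes. It read 8.95 in wild-type and 8.50 in BCL11B-/- MEFs, which is 1.36-fold lower. This is its only probe set, so no second reading of *Fos* could be had. Of all counted genes 2.81% read at least as far down.

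*Rgs2* encodes a regulator that speeds up GTP hydrolysis on G proteins and is known as an early gene of adipocyte differentiation. It read 9.95 and 9.79 on its brightest probe set, then 9.62 and 9.30, and 9.41 and 9.23, in BCL11B+/+ and BCL11B-/- MEFs. The dimmest of its 4 probe sets read 5.13 and 5.06. All 4 were lower in BCL11B-/- MEFs, with log2 differences of −0.32 to −0.08, with a mean difference of −0.18. *Sik1*, a salt-inducible kinase that phosphorylates the CREB coactivators of the CRTC family and so holds them out of the nucleus, read 7.16 and 6.96, which is 1.15-fold lower. A dim second probe set of *Sik1* read 3.77 and 3.70. *Fos*, *Rgs2* and *Sik1* thus all read lower in BCL11B-/- MEFs on every probe set, and by less than 1.5-fold on each.

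The promoter windows of *Fos* (chr12:85473640-85473939, plus strand) and *Rgs2* (chr1:144004100-144004399, minus strand) are shown for comparison with the NR4A genes. They were chosen because both read lower where *Nr4a2* read higher. *Creb1* (−0.19) also read lower, with 0 half-sites in its window. *Nr4a1* (0.07) and *Nr4a3* (0.02), with 4 half-sites each, lay within the technical spread. Half-sites are again in capitals.
Fos: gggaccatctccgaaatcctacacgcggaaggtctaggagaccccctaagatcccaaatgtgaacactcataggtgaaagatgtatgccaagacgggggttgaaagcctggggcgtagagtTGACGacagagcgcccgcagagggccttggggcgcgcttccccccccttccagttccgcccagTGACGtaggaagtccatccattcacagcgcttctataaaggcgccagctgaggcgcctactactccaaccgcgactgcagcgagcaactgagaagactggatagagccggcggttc
Rgs2: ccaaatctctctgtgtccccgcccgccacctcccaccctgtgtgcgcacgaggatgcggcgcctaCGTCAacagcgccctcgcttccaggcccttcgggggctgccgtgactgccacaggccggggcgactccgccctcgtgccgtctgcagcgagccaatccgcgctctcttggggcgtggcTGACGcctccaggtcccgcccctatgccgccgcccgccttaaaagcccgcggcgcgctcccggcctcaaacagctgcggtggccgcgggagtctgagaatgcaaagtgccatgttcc

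Each of the 2 windows held 2 half-sites, and 5.01% of all windows held at least as many. In *Fos* they began 129 and 66 bases before the start, and in *Rgs2* 185 and 67 bases before it. In BCL11B-/- MEFs *Nr4a2* (0.54) read higher and *Fos* (−0.45) and *Rgs2* (−0.16) lower, each by under 1.5-fold on 1 array per genotype. Any part of the half-sites in these differences was not tested.

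The study ranked genes by the weighted average difference, in which brighter probe sets weigh more, and took 50 increased and 50 decreased genes. By this score *Nr4a2* ranked 192nd from the top of 18193 genes, and *Fos* ranked 314th from the bottom. *Rgs2* ranked 511th from the bottom, through a probe set that differed by −0.32. None of the 10 genes was therefore among the 50 on either side.

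**Figure D3:**
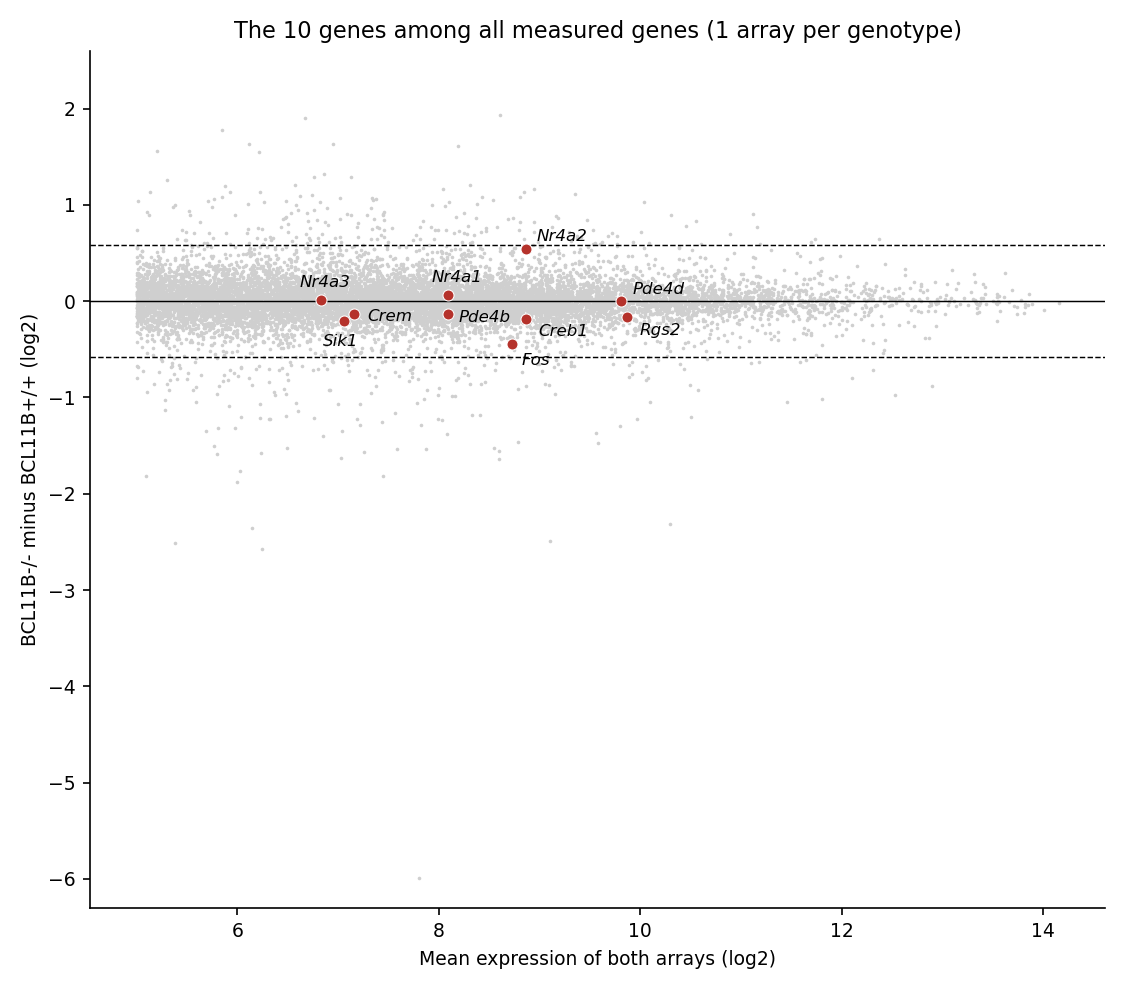
Log2 expression in BCL11B-/- minus that in BCL11B+/+ MEFs (vertical axis) against the mean of both arrays (horizontal axis, log2) for 12331 genes (grey) and the 10 cAMP-responsive genes (red), 1 array per genotype. Dashed lines mark 1.5-fold; *Nr4a2* at 0.54 lies just under the upper line, *Fos* at −0.45 above the lower one, and the lone grey point at −5.99 is *Xist*.

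Other genes of the pathway were read from 8 lists, which together held 98 counted genes, of which 6 exceeded 1.5-fold upward in BCL11B-/- MEFs, 3 downward and 89 in neither direction. These are 6.12% and 3.06%, against 1.61% and 1.75% of all counted genes, for lists chosen with earlier results known. Their median difference was 0, as it was over all counted genes. Upstream of the 10 genes, 0 of 7 receptor and G protein genes and 0 of 8 adenylyl cyclases reached 1.5-fold on their brightest probe sets. Out of 12 genes for PKA subunits, their inhibitors and anchors and EPAC, 0 did. *Gnas*, the stimulatory G protein α subunit, read 13.09 in wild-type and 12.96 in BCL11B-/- MEFs, and *Prkaca*, the main PKA catalytic subunit, read 10.30 and 10.28. Of the receptor list, 6 genes had no probe set naming them alone and were not analysed here. On the brightest probe sets the prostaglandin receptor genes *Ptgir* and *Ptger4* read lowest of that list, with −0.33 and −0.31. The other probe set of *Ptger4* differed by −0.80, past 1.5-fold, and the mean of its 2 was −0.55. The inhibitory G protein genes *Gnai2* and *Gnai1* read highest, with 0.23 and 0.03. Among cyclases, which make cAMP, *Adcy7* and *Adcy4* differed by −0.22 and −0.18 and *Adcy2* and *Adcy9* by 0.22 and 0.04. *Akap13*, an anchoring protein, and *Pkia*, an inhibitor of PKA, differed by −0.43 and −0.42, while the anchor *Akap12* differed by 0.25 and the inhibitor *Pkig* by 0.11. The 7 probe sets of *Akap13* ranged from −0.60, past 1.5-fold, to 0.12, with a mean of −0.25.

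The phosphodiesterases other than *Pde4b* and *Pde4d* were the upstream list with genes past 1.5-fold. Of 13 counted genes 2 were higher, 0 were lower and 11 were neither. *Pde1a*, a calmodulin-dependent enzyme, read 6.31 in wild-type and 7.34 in BCL11B-/- MEFs, which is 2.05-fold higher. This rests on 1 probe set, since its other one differed by −0.16. *Pde5a*, which breaks down cGMP, read 7.55 and 8.31, 1.70-fold higher, and its 3 probe sets ranged from 0.77 to 0.89. *Pde10a* differed by −0.56 and *Pde3b*, the enzyme through which insulin lowers cAMP in fat cells, by −0.47, both short of 1.5-fold. The mean over all 5 probe sets of *Pde10a* was −0.26. *Pde8b* read 5.39 in wild-type and 5.94 in BCL11B-/- MEFs, near the floor. It was 1.46-fold higher on its brighter probe set, short of 1.5-fold. The mean of its 2 probe sets was 0.64, past 1.5-fold.

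**Figure D4:**
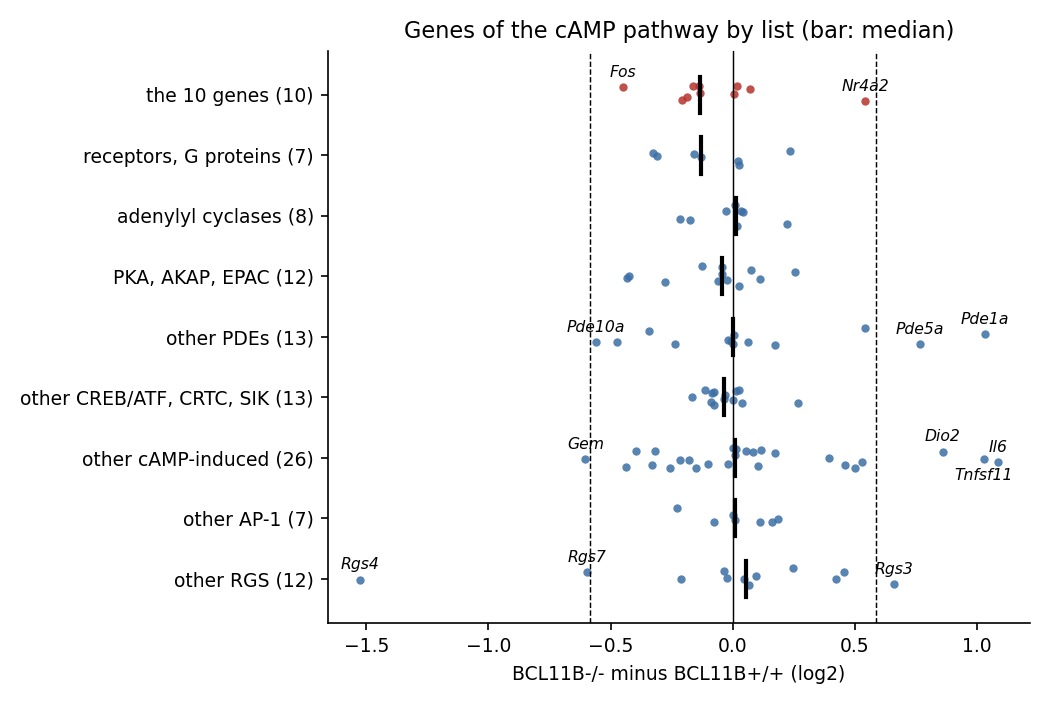
Log2 expression in BCL11B-/- minus that in BCL11B+/+ MEFs (horizontal axis) for the 10 genes (red) and 8 lists of other cAMP pathway genes (blue, number of counted genes in brackets), 1 array per genotype. Black bars are medians and dashed lines mark 1.5-fold, past which lie *Pde1a*, *Pde5a*, *Dio2*, *Tnfsf11*, *Il6*, *Rgs3*, *Gem*, *Rgs7* and *Rgs4*; points are spread vertically for legibility only.

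Among other CREB and ATF factors, CRTC and acetyltransferase coactivators and other SIK kinases, 0 of 13 counted genes reached 1.5-fold. Over all counted genes 1.61% were that far up and 1.75% that far down. *Creb3l1*, a factor of the endoplasmic reticulum, differed by 0.27 and *Creb3l2* by 0.04, while *Atf4*, the stress-response factor, differed by −0.17 and *Atf7* by −0.11. The coactivator genes *Crtc1*, *Crtc2* and *Crtc3*, whose products SIK1 restrains, differed by −0.08, 0.02 and −0.08 on their brightest probe sets, within the technical spread. The 3 probe sets of *Crtc1* reached from −0.08 to 0.30, outside that spread, with a mean of 0.09. Of 7 other AP-1 subunits 0 reached 1.5-fold. *Jund* and *Jun* read lowest, with −0.23 and −0.08, and *Junb* and *Batf* highest, with 0.19 and 0.16. No other AP-1 gene thus stood as far from 0 as *Fos*.

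Of 26 other genes known to be induced by cAMP, 3 passed 1.5-fold upward in BCL11B-/- MEFs, 1 passed it downward and 22 did not pass it, where 1.61% and 1.75% of all counted genes did so. *Il6*, which encodes an inflammatory cytokine, read 5.31 and 6.40 in the wild type and the knockout, 2.12-fold higher. This was on 1 probe set, close to the floor in the wild type. *Tnfsf11*, which encodes the osteoclast factor RANKL, read 7.59 and 8.61, 2.04-fold higher. *Dio2*, a deiodinase that activates thyroid hormone, read 8.75 and 9.61, 1.81-fold higher. *Gem*, a small GTPase, read 8.34 and 7.73, 1.52-fold lower, on 1 probe set. *Klf4*, a factor of early adipogenesis, was next lowest with −0.44. The adipogenic factor genes *Cebpb* and *Cebpd* differed by −0.15 and 0.01 on their brightest probe sets. The other of the 2 probe sets gave 0.02 for *Cebpb* and −0.38 for *Cebpd*, so the probe sets of each disagreed.

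The RGS family, apart from *Rgs2*, held 12 counted genes, of which 1 was higher, 2 were lower and 9 were neither. *Rgs4* read 7.26 in wild-type and 5.73 in BCL11B-/- MEFs, 2.88-fold lower, and its 3 probe sets ranged from −1.52 to −0.35. *Rgs7* was 1.51-fold lower on 1 probe set, at 5.54 and 4.94, close to the floor. *Rgs3* was 1.58-fold higher on its brightest probe set, and 0.25 as the mean of all 4. *Rgs17* differed by 0.46. The difference of *Rgs2* by −0.16 was thus small beside that of *Rgs4*.

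Markers of other cell types moved with the genotypes. Of 12 macrophage markers 11 were counted, all 11 read lower in BCL11B-/- MEFs and 8 did so by at least 1.5-fold. Their summed linear signal was 4811 in wild-type and 2819 in BCL11B-/- MEFs, and the defining *Csf1r* and *Adgre1* read 8.85 and 7.99, and 7.44 and 6.83. *Cx3cr1* was below the floor on both arrays. Of 6 chondrocyte markers 5 were counted and 4 were at least 1.5-fold higher, with a summed signal of 411 and 827. Of 6 endothelial markers 5, and of 6 skeletal muscle markers 4, were below the floor. Of 4 counted neural markers 1 was at least 1.5-fold higher, and of 5 counted epithelial markers 0 were that far apart. Over all counted genes 1.61% were at least 1.5-fold higher and 1.75% lower. The part of these markers in the differences of the 10 genes was not tested. In such bulk samples fewer cells of a type and less RNA per cell cannot be told apart.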

How the data were processed

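Total RNA was labelled and hybridized to Affymetrix Mouse Genome arrays. The authors ran the robust multi-array average (RMA), with R 3.0.3 named in the processing notes, so the deposited values are log2 expression, background-corrected, normalized between arrays and summarized per probe set. Such normalization hides a change of total mRNA, and 2.66% of counted genes read exactly the same on both arrays.

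Of 45101 probe sets, 64 controls were left out and 34945 named exactly 1 gene in the platform annotation. The difference is BCL11B-/- minus BCL11B+/+. The brightest probe set on average stood for a gene, counted from a mean of 5. No p-value could be had from 1 array a genotype. The 10 genes and all lists were chosen with earlier results of these data known. Named genes were the 10, the 2 highest and 2 lowest of each list, and those past 1.5-fold. *Gnas*, *Prkaca*, *Pde8b*, the *Crtc*, *Cebpb* and *Cebpd* genes and those under the other observations were picked after their values were seen. Alternatives changed the probe set, the filter, the fold and the scaling (loess span 0.4). Promoter sequences are from RefSeq, GRCm38.p6. Python 3.11.15, pandas 2.3.3 and statsmodels 0.14.6 were used.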

Additional observations from a re-analysis of the deposited data

How the results depend on the processing

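Across the alternatives run at 1.5-fold, 0 of the genes were higher and 0 were lower. All 10 were counted except with a mean of at least 7, where *Nr4a3* fell out and 9 were left. At 1.2-fold 1 of the 10 was higher (*Nr4a2*) and 1 was lower (*Fos*), and at 2-fold none was either. Of all 12331 counted genes, 1087 were higher and 962 lower at 1.2-fold, and 43 and 62 at 2-fold. Against that background, 1 gene of 10 in each direction at 1.2-fold did not stand out. With a mean of at least 7, 112 genes were higher and 124 lower at 1.5-fold. These come from a smaller set of genes and cannot be compared directly with counts out of 12331. Subtracting the median, which was 0, and leaving out probe sets that carry a suffix gave the 10 genes the same values as before by construction. The mean over all probe sets could move only the 8 genes with several, and it moved 1 of them past the spread between probe sets, *Nr4a2* at 0.33. *Pde1a* turned to −0.16 without suffixed probe sets, and was 0.44 as the mean over all, under 1.5-fold. *Rgs3* was 0.25 as that mean and also under 1.5-fold. *Pde8b* went the other way, at 0.64 as that mean and so past 1.5-fold. Of the other named genes that mean moved *Ptger4* to −0.55, *Akap13* to −0.25, *Pde10a* to −0.26 and *Rgs4* to −1.05. The cause was not tested. By plain difference *Nr4a2* ranked 287th. The loess curve ranged from −0.01 to 0.01, so scaling moved little. No paired analysis was possible because each genotype had 1 array. The number of arrays limits the precision: the spread between cultures is unknown.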

Other observations

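Further immediate early genes were picked out after the values of *Fos* had been seen, and are given as values. The 9 genes are not all of their kind on the array, so their counts describe these 9 alone. Of the 9, 6 read below 0 and 3 above, and 0 reached 1.5-fold, on the brightest probe set of each. Among all counted genes 48.5% read below 0, and 1.61% were at least 1.5-fold higher and 1.75% lower. *Klf4* differed by −0.44, the stress-induced factor *Atf3* by −0.40, the zinc finger factors *Egr1* and *Egr2* by −0.33 and −0.32, and *Ier2* and *Ier3* by −0.26 and −0.22. *Btg2* and the MAP kinase phosphatase gene *Dusp1* differed by 0.01 and 0.05. *Egr3* went the other way with 0.53, as *Nr4a2* did with 0.54. For *Egr3* this rests on 1 of 2 probe sets, since the other differed by −0.04, and its wild-type level was 5.85. The second probe sets of *Klf4* and *Egr2* differed by −0.60 and −0.73. Outside the 9, *Ptgs2*, which encodes cyclooxygenase 2, differed by 0.46, *Junb* by 0.19 and *Jun* by −0.08. The second probe sets of *Ptgs2* and *Jun* differed by 0.05 and −0.24. Whether any of these differences would recur in other cultures was not tested.

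Genes with a CRE in the promoter window were also counted, a set added after the values were seen. The full TGACGTCA was present for 343 counted genes, of which 4 were at least 1.5-fold higher and 2 were lower, or 1.17% and 0.583%. Among 6436 counted genes with no half-site, 1.60% were higher and 1.93% were lower. With at least 1 half-site, 1.18% of 3481 counted genes were higher and 1.12% were lower. With at least 4, 0 of 57 were higher and 0 were lower. The median difference was 0.01 in the set of 57 and 0 in the other sets. The 6 genes past 1.5-fold with the full TGACGTCA were *Dio2* (0.86), *Slc38a6* (0.61), *Kif5c* (0.61), *Daam2* (0.60), *Mitf* (−0.61) and *Scg2* (−1.35). Of these, *Scg2*, which encodes the secretory granule protein secretogranin II, read 6.36 in wild-type and 5.02 in BCL11B-/- MEFs.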
